A study of Mus musculus with 12 samples.

Results

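The 10 genes described here are the 8 members of the E2F family of transcription factors, E2f1 to E2f8, and 2 pocket proteins, Rb1 and Rbl1. They were chosen by name, out of 22342 protein-coding genes with a promoter on chromosomes 1 to 19 and X of the mouse genome. Earlier results of these data were known at that choice. Histone marks were mapped by ChIP-seq in C2C12 cells, a mouse muscle cell line of the C3H strain, at passages 15 to 18. Myoblasts were dividing cells taken near confluence in medium with 10% serum, and myotubes were taken at about day 5 of differentiation after serum withdrawal and were lifted off the unfused cells by light trypsination. The labels name no transgene, knockdown or drug in either group. For each of 6 marks there was 1 library of myoblasts and 1 of myotubes, 12 in all, with no replicate and no input library, so no test between the cell types was possible and each value is given with its counting interval only.

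E2F factors bind the promoters of genes for DNA replication and cell division. E2F1, E2F2 and E2F3 are known mainly as activators, E2F4 and E2F5 mainly as repressors that work with pocket proteins in cells that have left the cycle, E2F6 as a repressor that does not bind pocket proteins, and E2F7 and E2F8 as atypical repressors that bind DNA without a DP partner. The retinoblastoma protein RB1 and its relative p107, the product of Rbl1, bind E2Fs and hold their targets silent until cyclin-dependent kinases phosphorylate them. In muscle, RB1 is known for keeping differentiated cells out of the cycle, and a myoblast must leave the cycle before it fuses into a myotube. Of the marks, H3K4me3 lies at active or poised promoters, H3K27ac at active promoters and enhancers, H3K4me2 at both, H3K4me1 at enhancers and promoter flanks, H3K36me3 over transcribed gene bodies, and H3K27me3 over Polycomb-silenced chromatin.

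A promoter was the 2 kb around the transcription start site (TSS), 1 kb either side, and a gene's TSS was its annotated protein-coding start with the most H3K4me3 in both cell types together. The level of a mark is the number of reads in the promoter over the number that a stretch of that length held on average in the same library, called fold over the genome mean. The ratio is the myotube level over the myoblast level after scaling by total reads, and every interval is an exact 95% interval that covers counting error and not the spread between cultures. Ratios of all promoters were shifted together for some marks: among 10431 promoters with a deposited H3K4me3 peak in both cell types, called marked promoters, the median ratio was 0.866 for H3K4me3, 0.624 for H3K4me2, 1.03 for H3K4me1 and 0.556 for H3K27ac. A relative ratio is a gene's ratio over that median. A promoter was counted as lower or higher when its ratio was at least 2-fold from 1 and the pair of libraries held at least 20 reads there together. Ratios are also ratios between 2 chromatin preparations, and preparation and cell type cannot be told apart here.

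The libraries held 1858771 to 7033100 reads, and the myoblast H3K27ac library was the smallest. All 6 myotube markers, Myog, Ckm, Acta1, Myh3, Tnnt3 and Mef2c, were at least 2-fold higher in myotubes for H3K4me3, H3K4me2, H3K27ac and H3K36me3, and Myod1, Myf5 and Des were marked in both cell types. Pax7 and Cd34, 2 markers of unfused reserve and satellite cells, lay at 6.91-fold and 7.38-fold over the genome mean for H3K4me3 in myoblasts and at 2.71-fold and 3.10-fold in myotubes. Neither was at 0, and the part of unfused cells in the values below was not tested. Of 4 genes of other fates that C2C12 cells can take, Pparg and Runx2 held H3K4me3 in both cell types, 24.4-fold and 14-fold at Pparg and 59.9-fold and 29.5-fold at Runx2, and Adipoq and Sp7 held 1 to 6 reads. Alb, Neurod1 and Cd3e, genes of liver, neurons and T cells, held 1 to 3 H3K4me3 reads per library. In myoblasts, H3K27ac reads were 0.588-fold over the genome mean in the peak list deposited for H3K27ac and 36.4-fold in the list deposited for H3K27me3. H3K27me3 reads were 6.76-fold in the former list and 0.804-fold in the latter, so these lists are named by the library they came with. No read count in this text used a peak list of H3K27ac or H3K27me3, other than the regions inside genes near its end.

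E2F family members are themselves known targets of E2F factors, so their promoter sequences were searched for E2F motifs before the marks are described. RefSeq promoters of GRCm38.p6, from 250 bases before to 50 after the start, were at hand for 7 of the 10 genes, 9 promoters in all, and each matched the mm9 genome exactly at 1 place. The E2F motifs searched on both strands were TTTCCCGC, TTTGGCGC, TTTGCCGC and TTTCGCGC, and the cell cycle homology region (CHR) motifs were TTTGAA and TTCGAA, the latter the same on both strands. At least 1 of the E2F motifs was in a promoter of E2f2, E2f3, E2f7 and Rbl1, against 2.27% of 32841 promoters in the table. A CHR motif was in a promoter of E2f2, E2f3 and E2f8, against 19.2% of all promoters. E2f1 and E2f6 held none of these letters in this window, and E2f4, E2f5 and Rb1 had no entry. The RefSeq start of E2f1 lay 294 bp after the TSS used here, so the window of E2f1 held no sequence before that TSS. RefSeq starts lay 555 bp before the TSS used at E2f8, 395 bp before it at E2f3 and 241 bp before it at E2f6. The E2f2 CHR match was in a second RefSeq promoter, 8388 bp after the TSS used here, and is not printed. The stretches below hold the other matches in capitals, read along each gene. The first is the whole 250 bases before the start of E2f7, the gene with the lowest H3K4me3 and H3K27ac ratios of the 10, and the others are the bases around the matches.
E2f7: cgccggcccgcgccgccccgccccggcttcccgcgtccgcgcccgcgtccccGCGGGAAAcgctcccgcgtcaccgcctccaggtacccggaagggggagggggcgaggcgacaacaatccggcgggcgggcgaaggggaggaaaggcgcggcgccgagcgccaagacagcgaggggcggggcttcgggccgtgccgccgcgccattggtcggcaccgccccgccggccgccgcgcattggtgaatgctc
Rbl1: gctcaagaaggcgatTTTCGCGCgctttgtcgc
E2f3: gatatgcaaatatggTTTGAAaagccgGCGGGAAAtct
E2f2: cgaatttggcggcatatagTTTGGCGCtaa
E2f8: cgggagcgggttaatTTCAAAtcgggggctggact
In mm9 these lie at chr10:110182245-110182494 on the plus strand (E2f7), chr2:157030271-157030303 on the minus strand (Rbl1), chr13:30077933-30077970 on the minus strand (E2f3), chr4:135728209-135728238 on the plus strand (E2f2) and chr7:56136967-56137001 on the minus strand (E2f8). None overlapped an exon of the GENCODE M1 annotation, but the E2f2 stretch lies 21 to 50 bases after its RefSeq start. GCGGGAAA is TTTCCCGC on the other strand, and TTCAAA is TTTGAA on the other strand. The E2F match began 198 bases before the RefSeq start in E2f7, 18 before it in Rbl1, 11 before it in E2f3 and 40 after it in E2f2. In E2f3 the CHR match, 23 bases before the start, and the E2F match did not overlap. The 9 promoters held 54.7% to 78.7% G and C, where the median of all was 52.7%. A match of letters is a description of the sequence and not a bound site. The motifs were chosen with earlier results of these data known, so the shares with a motif are descriptions too.

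All 10 promoters carried the marks of active promoters in myoblasts. H3K4me3 lay between 21.7-fold over the genome mean at Rb1 and 47.9-fold at E2f4, with a median of 39.0-fold, and no neighbours in the order of the 10 differed beyond their counting intervals. H3K4me2 had a median of 45.4-fold, from 21.1-fold at Rb1 to 64.3-fold at E2f1. H3K27ac spread more widely, from 6.88-fold at Rb1 and 10.3-fold at E2f5 to 75.0-fold at E2f3, with a median of 39.2-fold. The medians of all marked promoters were 33.6-fold for H3K4me3, 33.9-fold for H3K4me2 and 25.4-fold for H3K27ac. H3K27me3 held 0 to 6 reads per promoter in either cell type, and no promoter of the 10 had an interval above the genome mean. E2f6 held 0 H3K27me3 reads in myoblasts, with an interval up to 0.672 times the genome mean, where 3 reads would be 0.547 times that mean. All 10 promoters lay within 1 kb of a deposited H3K4me3 peak and of an H3K4me2 peak in both cell types, against 48.6% and 56.7% of all promoters in myoblasts and 48.8% and 52.9% in myotubes. H3K4me1 peaks lay there for 5 of the 10 in myoblasts, against 29.4% of all promoters, and for 3 in myotubes, against 10.8%. Myotube H3K27ac peaks lay at 8, all but E2f1 and E2f7, against 42.2%. The list deposited with the myoblast H3K27me3 library covered 9, all but Rb1, against 46.0%, and the list deposited with the myoblast H3K27ac library covered 0, against 5.03%.

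In myotubes the 10 promoters were spread further apart in H3K4me3, where the highest level was 12.2 times the lowest, against 2.21 in myoblasts. For H3K27ac these values were closer, 15.1 in myotubes and 10.9 in myoblasts. The lowest in myotubes was E2f7 for both marks, with 12 H3K4me3 and 7 H3K27ac reads. H3K27ac had the lowest median ratio of the 4 marks. The median H3K27ac level of the 10 was 8.12-fold in myotubes against 39.2-fold in myoblasts, and the median ratio was 0.215, or 0.386 relative to marked promoters. E2f1, E2f2, E2f3, E2f6, E2f7, E2f8 and Rbl1, 7 of 10, were at least 2-fold lower, where 41.1% of all 10770 promoters with enough reads were, and Rb1 alone was at least 2-fold higher, where 5.83% were. With relative ratios 6 of the 10 were lower, E2f6 no longer among them, against 12.5% of all promoters, and Rb1 was again the 1 higher, against 16.2%. E2f4 and E2f5 had intervals that held 1. Such a difference in a population of cells can be a mark on fewer chromosomes or less of it on each, which cannot be told apart.

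H3K4me3 differed less. Its median level was 20.9-fold in myotubes, and the median ratio 0.622. E2f3, E2f7, E2f8 and Rbl1 were at least 2-fold lower, 4 of 10 against 8.09% of all 11402 promoters with enough reads, and none was higher, against 3.74%. With relative ratios only E2f3 and E2f7 were lower, 2 of 10 against 4.94%, and 0 were higher, against 4.94%. E2f8 and Rbl1 sat at the edge of the 2-fold limit, with ratios of 0.483 and 0.497, and E2f1 just outside it at 0.522. In myotubes E2f4 stood above the next promoter, E2f5, and E2f7 below the next, Rb1, beyond their counting intervals, and no other neighbours in the order did.

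H3K4me2 had a median of 26.2-fold in myotubes and a median ratio of 0.639, close to the 0.624 of all marked promoters. E2f1, E2f2 and E2f7 were at least 2-fold lower, 3 of 10 against 36.8% of all promoters, and 0 were higher against 2.42%. With relative ratios E2f7 alone was lower, against 11.3%, and 0 were higher, against 7.36%. H3K4me1 was low at these promoters, with medians of 3.06-fold and 3.57-fold. Of the 8 with enough H3K4me1 reads, E2f7 was lower, 17 reads against 8, where 20.4% of all promoters were, and E2f3 and E2f4 were higher, where 9.88% were. The relative ratios put the same genes past the limit, against 22.6% lower and 9.75% higher. Of these the interval excluded 1 at E2f4 only.

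**Figure D1:**
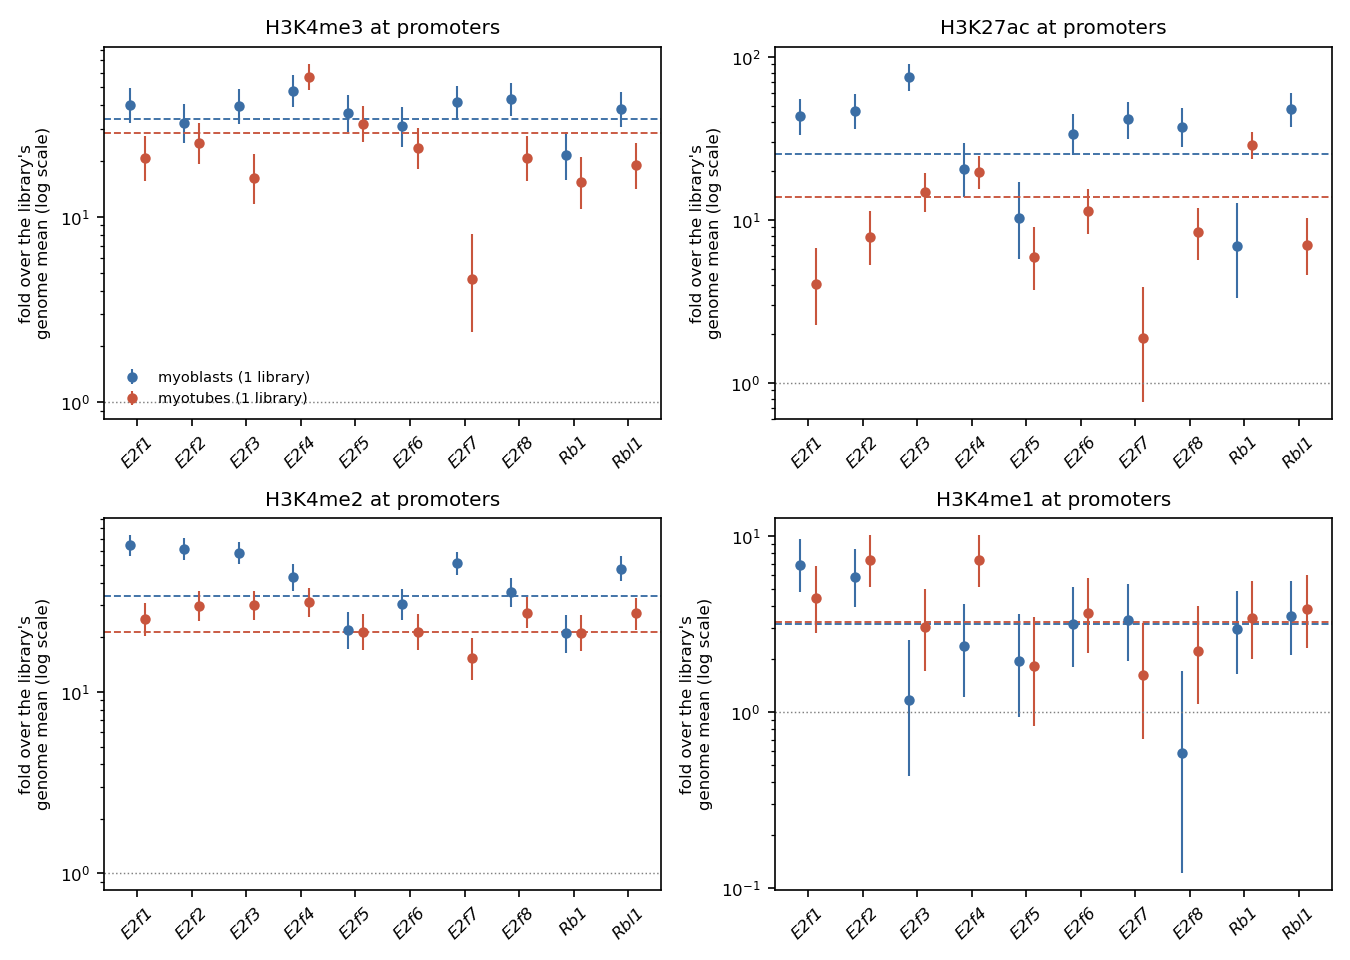
Level of 4 marks at the promoter of each gene, as fold over the genome mean of the library (log axis), in myoblasts (blue) and myotubes (red); points are 1 library each, bars are exact 95% Poisson intervals, dashed lines are the medians of 10431 marked promoters, and dotted lines are the genome mean. For H3K27ac the red points lie below the blue ones except at E2f4, where they are close (20.6-fold and 19.7-fold), and at Rb1, where the red point is higher (6.88-fold and 28.7-fold).

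The activators E2f1, E2f2 and E2f3 all had much less promoter H3K27ac in the myotube library. E2f1 (chr2:154385143-154395628, minus strand) held 63 H3K27ac reads in myoblasts, 43.3-fold over the genome mean, and 15 in myotubes, 4.06-fold, a ratio of 0.0937 (0.0495 to 0.166). Its H3K4me3 level was 40.1-fold and 20.9-fold, and its H3K4me2 level 64.3-fold and 25.3-fold, with a ratio of 0.393 (0.305 to 0.503). In myoblasts 58 of its H3K4me3 reads lay in the 1 kb after the TSS and 29 in the 1 kb before it, whereas in myotubes the counts were 23 and 31. The lower count in myotubes was thus on the gene side of the TSS, and over the 2 kb after the TSS the ratio was 0.338 for H3K4me3 and 0.256 for H3K4me2. In the stretch from 1 to 3 kb after the TSS its H3K4me2 held 84 and 25 reads, a ratio of 0.269 (0.165 to 0.424).

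E2f2 (chr4:135728309-135751972, plus strand) held similar H3K4me3 counts in the cell types, with 70 reads in myoblasts and 65 in myotubes, 32.3-fold and 25.2-fold, and a ratio of 0.781 (0.549 to 1.11), but within 500 bp of the TSS the ratio was 0.519. Its H3K27ac was far lower in myotubes, with 68 and 29 reads, 46.8-fold and 7.85-fold, a ratio of 0.168 (0.105 to 0.263). H3K4me2 lay between these, at 61.6-fold and 29.8-fold. From 1 to 3 kb after the TSS of E2f2, H3K4me3 had a ratio of 1.02 (0.666 to 1.57) and H3K4me1 one of 0.467 (0.318 to 0.677). H3K27ac in that stretch was closer to 1 than in the promoter, with 47 and 67 reads, 32.3-fold and 18.1-fold, a ratio of 0.561 (0.380 to 0.832).

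E2f3 (chr13:29998444-30077537, minus strand) had the highest H3K27ac of the 10 in myoblasts, 109 reads or 75.0-fold, and 55 reads or 14.9-fold in myotubes, a ratio of 0.198 (0.141 to 0.277), or 0.129 over the 2 kb after the TSS. At 14.9-fold it was still above the 13.8-fold median of marked promoters in myotubes. H3K4me3 was 39.6-fold and 16.3-fold, a ratio of 0.411 (0.277 to 0.601), and within 500 bp of the TSS the ratio was 0.193. The reads of E2f3 also lay differently about the TSS. In myoblasts 85 of its H3K27ac reads lay after the TSS and 24 before it, and in myotubes 20 lay after and 35 before. The deposited H3K4me3 peak of E2f3 was 1 piece of 4869 bp in myoblasts and 2 pieces of 1507 and 1412 bp in myotubes.

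The repressors E2f4 and E2f5 did not show this pattern. E2f4 (chr8:107821563-107829269, plus strand) had the most H3K4me3 of the 10 in both cell types, with 104 reads or 47.9-fold in myoblasts and 147 reads or 57.0-fold in myotubes, a ratio of 1.19 (0.919 to 1.54). H3K27ac held 30 and 73 reads, 20.6-fold and 19.7-fold, a ratio of 0.957 (0.618 to 1.52), which relative to marked promoters is 1.72 (1.11 to 2.73). Of these H3K27ac reads, 5 in myoblasts and 30 in myotubes lay in the 1 kb before the TSS. In the 1 kb after it lay 25 and 43. Its promoter H3K4me1 was 2.37-fold and 7.34-fold, a ratio of 3.10 (1.58 to 6.54), but over the 2 kb after the TSS the H3K4me1 ratio was 0.620. More reads in myotubes lay on the other side of the TSS, where the promoter of Exoc3l starts on the opposite strand 1565 bp away. From 1 to 3 kb before the TSS of E2f4 the H3K27ac reads were 7 and 82, 4.82-fold and 22.2-fold, and the H3K4me3 reads 1 and 26. These reads, and those in the 1 kb before the TSS, cannot be assigned to E2f4 or Exoc3l.

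E2f5 (chr3:14578671-14606308, plus strand) had H3K4me3 at 36.4-fold and 31.8-fold, with 79 and 82 reads, and H3K4me2 at 22.0-fold and 21.5-fold, and both ratios had intervals that held 1. Its H3K27ac was low in both cell types, 15 and 22 reads or 10.3-fold and 5.95-fold, a ratio of 0.577 (0.286 to 1.20), whose interval held both 1 and the shift of all marked promoters. Within 500 bp of the TSS the E2f5 ratio was lower for H3K4me3, at 0.475. For H3K27ac it was 0.467, inside the interval of the 2 kb promoter. E2f6 (chr12:16817771-16833549, plus strand), the repressor that works without pocket proteins, held 67 and 61 H3K4me3 reads, 30.9-fold and 23.7-fold, a ratio of 0.766 (0.532 to 1.10) that was 0.508 within 500 bp of the TSS. Its H3K27ac was 33.7-fold and 11.4-fold, a ratio of 0.337 (0.218 to 0.520) and a relative ratio of 0.606 (0.392 to 0.934). The E2f6 ratio was 0.645 over the 2 kb after the TSS. In the 1 kb after the TSS lay 23 of its 49 promoter H3K27ac reads in myoblasts and 32 of 42 in myotubes.

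The atypical repressors E2f7 and E2f8 differed from each other. E2f7 (chr10:110182495-110224440, plus strand) had the lowest ratio of the 10 for H3K4me3, H3K4me2 and H3K27ac. Its H3K4me3 held 90 reads in myoblasts and 12 in myotubes, 41.5-fold and 4.65-fold, a ratio of 0.112 (0.0559 to 0.206). The myotube level of E2f7 was at the 1.0 percentile of marked promoters, where its myoblast level had been at the 67.3 percentile. H3K27ac held 60 and 7 reads, 41.3-fold and 1.89-fold, a ratio of 0.0459 (0.0177 to 0.10) that was 0.0271 within 500 bp of the TSS and 0.0726 with 5 reads added to each count, and the myotube interval, 0.761 to 3.90, held the genome mean. The deposited H3K4me3 peak was 2830 bp long in myoblasts and 607 bp in myotubes. H3K4me2 had the highest ratio of these 3 marks, at 51.2-fold and 15.3-fold, a ratio of 0.299 (0.218 to 0.406). The E2f7 promoter held 6 H3K27me3 reads in myoblasts and 0 in myotubes, and so no more H3K27me3 was measured where the active marks were lower.

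E2f8 (chr7:56121799-56136966, minus strand) held 94 and 54 H3K4me3 reads, 43.3-fold and 20.9-fold, a ratio of 0.483 (0.339 to 0.682), and its H3K4me2 ratio was 0.774 (0.588 to 1.02). H3K27ac held 54 and 31 reads, 37.1-fold and 8.39-fold, a ratio of 0.226 (0.140 to 0.358), or 0.376 within 500 bp of the TSS. The E2f8 value depended on the side of the TSS. From 1 to 3 kb before the TSS H3K27ac held 41 and 18 reads, a ratio of 0.173 (0.0934 to 0.307), and from 1 to 3 kb after it 42 and 175 reads, a ratio of 1.64 (1.16 to 2.35). Over the 2 kb after the TSS the H3K27ac ratio was accordingly 0.902, and E2f8 was not lower there. A lincRNA on the opposite strand, Gm2788, has a start 259 bp before the TSS of E2f8. Its annotated span begins inside E2f8, at chr7:56133328, and overlaps E2f8 by 3639 bp. Reads of this overlap, which takes in the stretch from 1 to 3 kb after the TSS, cannot be assigned to either gene. They are also part of the gene body counts of E2f8.

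The pocket proteins went opposite ways in H3K27ac. Rb1 (chr14:73583480-73725629, minus strand), the retinoblastoma gene, held 10 H3K27ac reads in myoblasts and 106 in myotubes, 6.88-fold and 28.7-fold. Its ratio of 4.17 (2.18 to 8.95) was the only one of the 10 above 1 with an interval that excluded 1, and relative to marked promoters it was 7.49 (3.92 to 16.1). Over the 2 kb after the TSS the ratio was 2.75. Among marked promoters Rb1 stood at the 9.35 percentile in myoblasts and at the 79.4 percentile in myotubes. A deposited myotube H3K27ac peak of 2269 bp covered its promoter, and Rb1 alone of the 10 had no peak in the list deposited with the myoblast H3K27me3 library, the list that holds H3K27ac reads. H3K4me3 had the fewest reads of the 10 in myoblasts, though not fewer than E2f6 beyond counting error, and its promoter count was not higher in myotubes, with 47 and 40 reads, 21.7-fold and 15.5-fold, a ratio of 0.716 (0.458 to 1.12). The H3K4me3 of Rb1 was instead placed differently: within 500 bp of the TSS its ratio was 0.374, over the 2 kb after the TSS it was 1.68 and so above 1, and from 1 to 3 kb after the TSS it held 9 and 43 reads, a ratio of 4.02 (1.93 to 9.38). H3K4me2 and H3K4me1 in that stretch had ratios of 4.43 (2.29 to 9.40) and 4.57 (1.98 to 12.3).

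Rbl1 (chr2:156971629-157030270, minus strand), which encodes p107, had less H3K27ac in myotubes. It held 69 and 26 H3K27ac reads, 47.5-fold and 7.03-fold, a ratio of 0.148 (0.0906 to 0.236). H3K4me3 was 83 reads or 38.3-fold in myoblasts and 49 reads in myotubes, a ratio of 0.497 (0.342 to 0.715). Rbl1 was the only member with more H3K27ac before than after its TSS beyond the counting interval in both cell types, 45 and 23 reads in myoblasts and 20 and 6 in myotubes. In myoblasts its H3K4me2 lay the same way, with 116 reads before and 45 after the TSS.

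**Figure D2:**
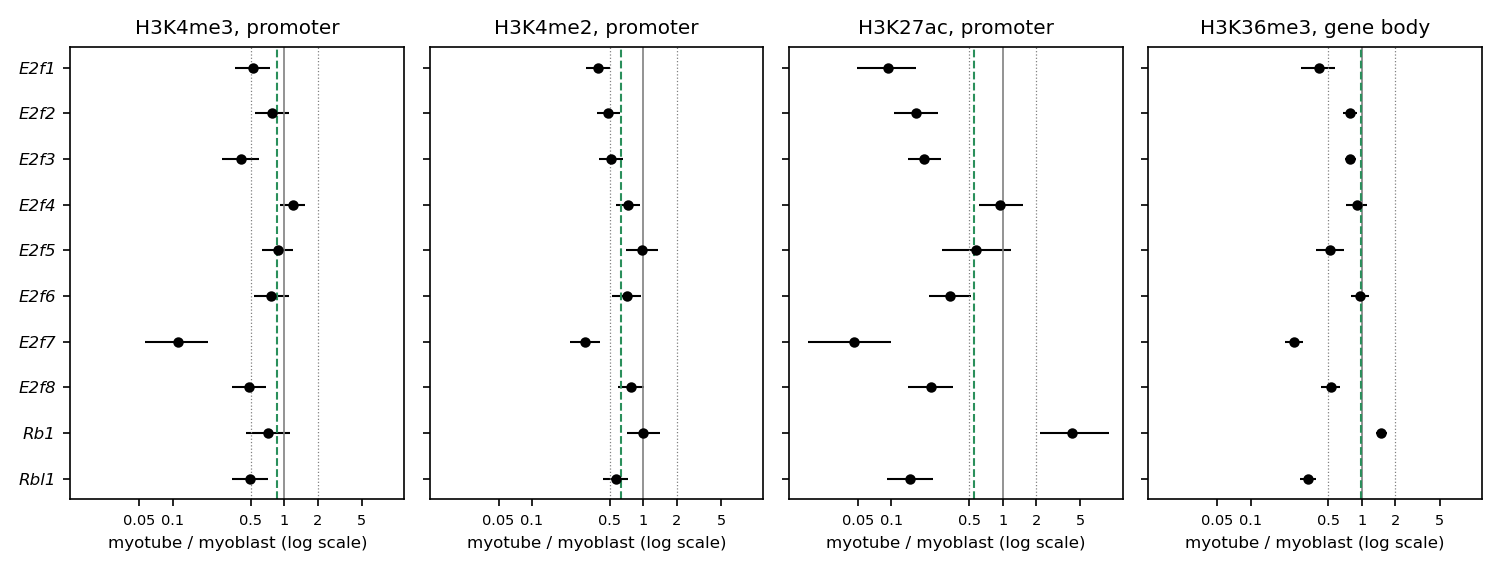
Ratio of myotubes to myoblasts (log axis) with exact 95% counting intervals for H3K4me3, H3K4me2 and H3K27ac at promoters and H3K36me3 over gene bodies; solid lines mark 1, dotted lines 2-fold, and green dashed lines the median of marked promoters or of genes with a marked promoter. E2f7 lies lowest in every panel, and Rb1 lies highest for H3K27ac (4.17) and H3K36me3 (1.5).

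**Figure D3:**
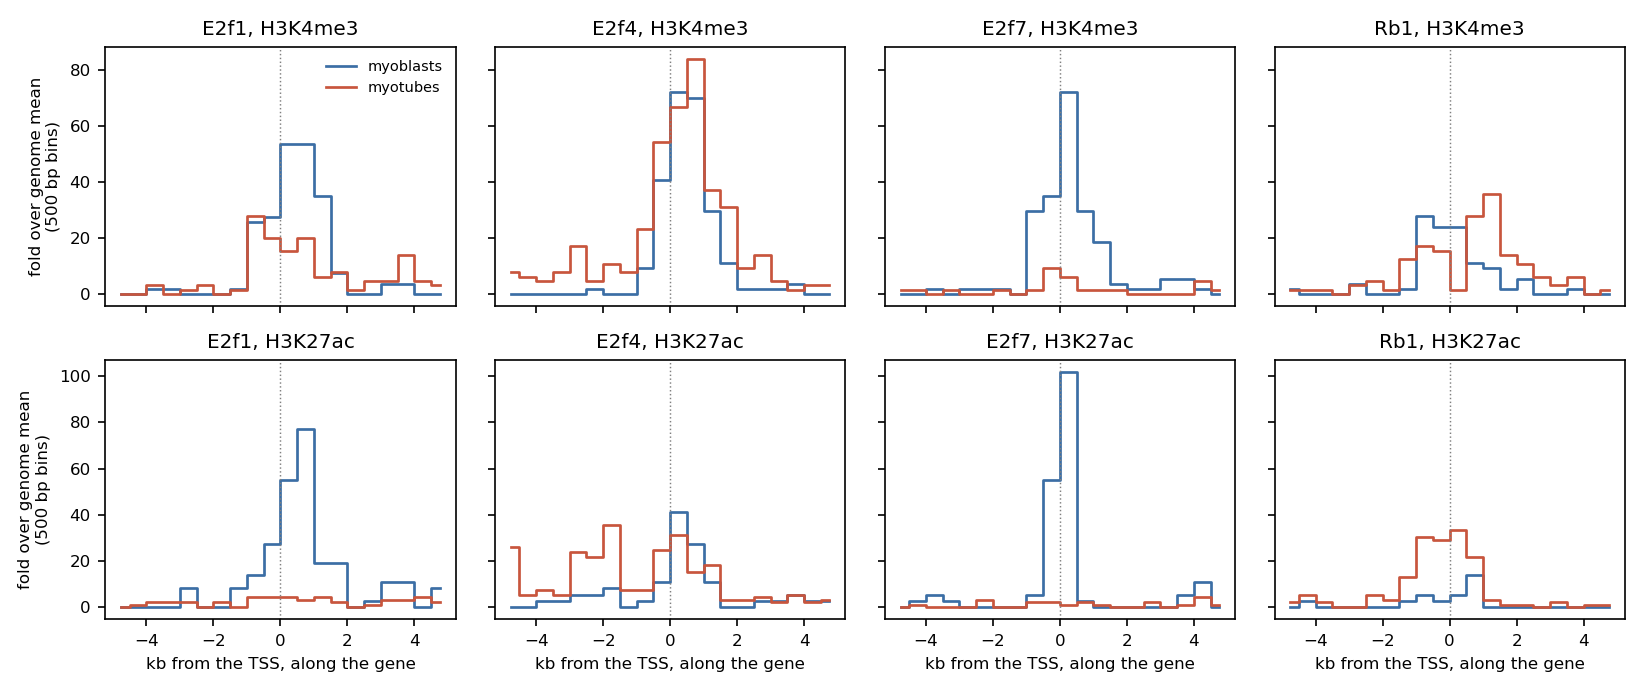
Fold over the genome mean in 500 bp bins, against distance from the TSS in kb along the gene, for H3K4me3 (top) and H3K27ac (bottom) in myoblasts (blue) and myotubes (red) at E2f1, E2f4, E2f7 and Rb1. E2f7 has a peak of both marks in myoblasts and little of either in myotubes (H3K4me3 90 and 12 reads, H3K27ac 60 and 7), E2f4 has H3K4me3 in both and more H3K27ac before the TSS in myotubes (7 and 82 reads from 1 to 3 kb), and Rb1 has H3K27ac in myotubes mainly (10 and 106 reads).

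H3K36me3 over gene bodies, from 1 kb after the TSS to the end of the gene, gave a separate reading from another pair of libraries. It lay above the genome mean for all 10 genes in both cell types. In myoblasts its level ran from 2.05-fold at Rb1 and 2.84-fold at E2f5 to 10.7-fold at E2f8 and 13-fold at E2f4, where the median gene with a marked promoter had 4.66-fold. In myotubes it ran from 1.48-fold at E2f5 to 11.7-fold at E2f4, where that median was 4.31-fold. The median ratio of those genes was 0.985, so scaling mattered little.

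E2f1, E2f7 and Rbl1 were at least 2-fold lower in H3K36me3, 3 of 10 against 7.47% of all 15364 genes with enough reads, and 0 were higher, against 7.90%. Relative ratios gave 3 and 0 as well, against 7.14% and 8.29%. E2f7 held 974 reads in myoblasts and 147 in myotubes, 8.68-fold and 2.14-fold, a ratio of 0.246 (0.206 to 0.293). Rbl1 held 882 and 179 reads, 5.57-fold and 1.84-fold, a ratio of 0.331 (0.280 to 0.389), and E2f1 held 164 and 41 reads, 6.4-fold and 2.61-fold, a ratio of 0.408 (0.282 to 0.577). E2f5 and E2f8 were just outside the limit at 0.520 (0.388 to 0.689) and 0.523 (0.426 to 0.640), and in the 3' part of the gene body E2f5 was at 0.480. E2f2 and E2f3 had ratios of 0.787 (0.681 to 0.909) and 0.790 (0.708 to 0.880), far closer to 1 than their H3K27ac. E2f4 and E2f6 had 0.901 (0.723 to 1.12) and 0.961 (0.805 to 1.15), intervals that held 1.

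Rb1 was again the exception in the other direction. Over its 129 kb body it held 730 H3K36me3 reads in myoblasts and 673 in the smaller myotube library, 2.05-fold and 3.09-fold, a ratio of 1.5 (1.35 to 1.67). H3K4me1 over the Rb1 body held 225 and 541 reads, a ratio of 2.48 (2.12 to 2.91). The body of Rb1 is overlapped by Lpar6, Rcbtb2, Gm17233 and Mir687, and their reads are part of these counts. H3K27me3 over the bodies was below the genome mean for all 10 genes in myoblasts, from 0.544-fold to 0.761-fold. In myotubes it ran from 0.443-fold at E2f5 to 1.67-fold at E2f4, and only at E2f4 did the interval, 1.05 to 2.53, lie above the mean. E2f4 held 10 H3K27me3 reads in myoblasts and 22 in myotubes, a ratio of 3.08 (1.40 to 7.28). E2f6 and E2f8 had ratios of 2.05 (1.21 to 3.51) and 2.02 (1.18 to 3.50), where the median of genes with a marked promoter was 1.42. Relative to that median the intervals held 1 at E2f4 (0.985 to 5.13), E2f6 (0.852 to 2.47) and E2f8 (0.828 to 2.47). At E2f3, E2f5, E2f7 and Rbl1 the relative intervals lay below 1. No share of all gene bodies stands beside these H3K27me3 ratios.

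**Figure D4:**
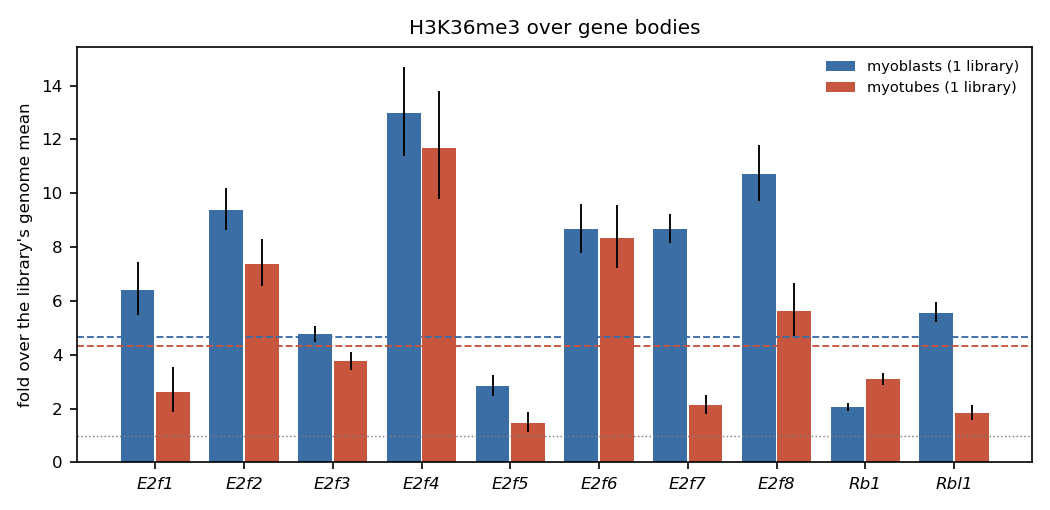
H3K36me3 over the gene body of each gene as fold over the genome mean of the library, in myoblasts (blue) and myotubes (red); bars are 1 library each with exact 95% Poisson intervals, dashed lines are the medians of genes with a marked promoter (4.66-fold and 4.31-fold) and the dotted line is the genome mean. The red bar is less than the blue one at E2f1, E2f7 and Rbl1 by more than 2-fold, close to it at E2f4 and E2f6, and above it at Rb1 (2.05-fold and 3.09-fold).

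Within the genes, 43 regions more than 1 kb from every TSS of the gene's protein-coding transcripts lay in a deposited peak of H3K4me1, H3K4me2 or H3K27ac. Some of those in E2f8 and Rb1 lay nearer to the start of another annotated transcript of the gene, such as the E2f8 region 1.47 kb from the TSS used. They were found from these same libraries, so their values are descriptions. For myoblast H3K27ac the list that came with the H3K27me3 library was used. E2f3 and E2f5 had none, and Rb1 had 11, all 11 in a myotube list and 1 in a myoblast list. E2f4 had 7, all 7 in a myotube list and 0 in a myoblast list, and E2f1 had 7, with 6 and 3. E2f2 had 5, with 2 in a myotube list and 5 in a myoblast list. E2f7 had 3, all in a myoblast list and 1 in a myotube list. No share over all genes stands beside these counts, and the lists were not alike. The H3K4me1 lists held 92623 peaks with a median length of 117 bp in myotubes and 67328 with a median of 933 bp in myoblasts. Of the Rb1 regions 8 were in the myotube H3K4me1 list, some with few reads, such as 1 and 0 H3K4me1 reads in myotubes and myoblasts at chr14:73707502-73707592. The part of peak calling in these counts was not tested.

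For H3K27ac the regions of E2f8 and Rbl1 with the most reads went against their promoters. In E2f8 the region at chr7:56124531-56127695, 10.3 kb from the TSS, held 12 H3K27ac reads in myoblasts and 259 in myotubes, 5.22-fold and 44.3-fold, a ratio of 8.49 (4.78 to 16.6) where the E2f8 promoter had 0.226. H3K4me1 of that region held 27 and 60 reads, a ratio of 2.29 (1.43 to 3.76). Its nearest other protein-coding gene is Csrp3, a muscle LIM protein gene, whose TSS is 21.1 kb away. In Rbl1 the region at chr2:156998123-157000221, 31.1 kb from the TSS, held 1 H3K27ac read in myoblasts and 100 in myotubes, 0.656-fold and 25.8-fold, a ratio of 39.3 with an interval from 6.90 to 1569, where the Rbl1 promoter had 0.148. A nearby region, chr2:156996241-156996923, lay in deposited peaks of H3K4me1 and H3K4me2 but not of H3K27ac. It held 16 and 107 H3K27ac reads, 32.2-fold and 84.8-fold, a ratio of 2.63 (1.55 to 4.77). Its H3K4me1 held 50 and 24 reads, a ratio of 0.496 (0.291 to 0.822). The nearest TSS of another gene, Samhd1, is 37.3 kb and 35.4 kb from these regions. Which gene these regions act on was not measured.

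The regions of E2f2 and E2f7 held less H3K4me1 in myotubes. In E2f2 the region at chr4:135729341-135735656, starting about 1 kb after the TSS and 6316 bp long, held 428 H3K4me1 reads in myoblasts and 174 in myotubes, 26.8-fold and 11.2-fold, a ratio of 0.420 (0.350 to 0.502). Its H3K27ac was closer between the cell types, 145 and 290 reads in libraries of unequal size, 31.6-fold and 24.9-fold, a ratio of 0.787 (0.642 to 0.967). A second E2f2 region, chr4:135741077-135743641, had 199 and 41 H3K4me1 reads, a ratio of 0.213 (0.148 to 0.299), and 29 and 19 H3K27ac reads, a ratio of 0.258 (0.137 to 0.476). In E2f7 the region at chr10:110186569-110187450 had 31 and 12 H3K4me1 reads, a ratio of 0.400 (0.187 to 0.801).

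**Figure D5:**
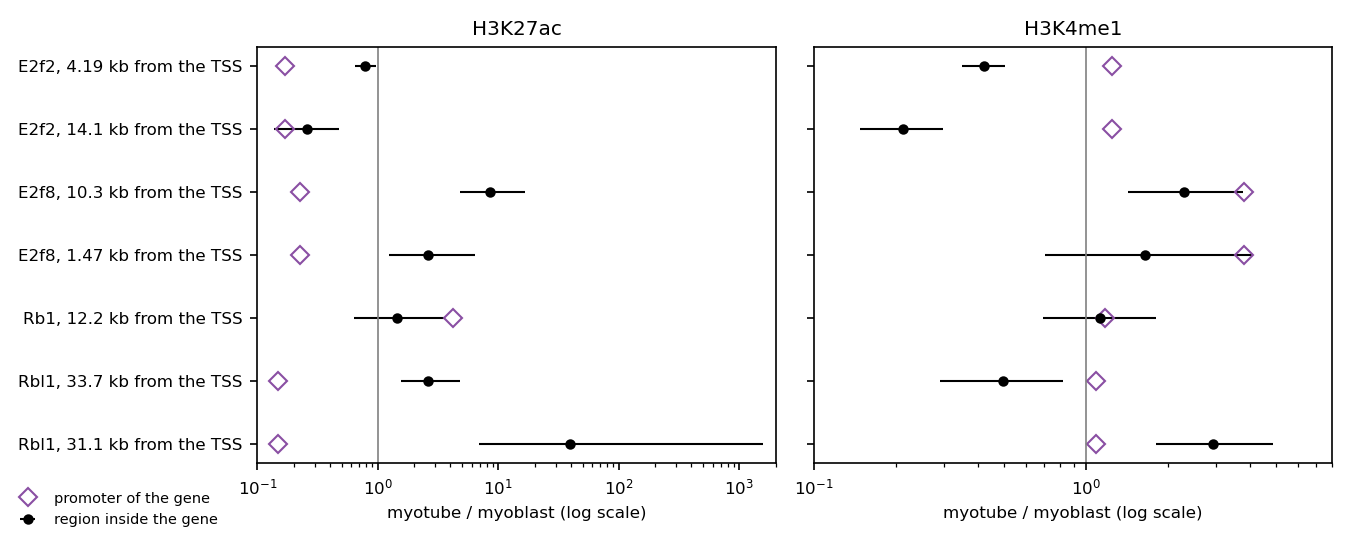
Ratio of myotubes to myoblasts (log axis) for H3K27ac (left) and H3K4me1 (right) in the 7 regions inside genes that held at least 20 H3K27ac reads in both libraries together (black, with exact 95% counting intervals), beside the promoter of the same gene (open diamonds). In E2f8 and Rbl1 the regions lie above 1 for H3K27ac (8.49 and 39.3 at the most) and the promoters below it (0.226 and 0.148).

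The wider pathway was described by lists of genes. The lists were chosen with earlier results of these data known, so their counts beside the shares of all promoters are descriptions and not tests. Of 20 E2F target genes, which encode replication and division proteins, 17 of the 19 with enough reads were at least 2-fold lower for H3K27ac, where 41.1% of all promoters were, and 0 higher, where 5.83% were, with a median ratio of 0.236 and the lowest ratio, 0.0715, at Cdk1, the mitotic kinase. With relative ratios 13 of the 19 were lower, against 12.5% of all promoters. For H3K4me3, 10 of 20 were lower, against 8.09%, and 0 higher, against 3.74%, and 8 were lower with relative ratios, against 4.94%, with a median of 0.50, from 0.190 at Mcm2, a subunit of the replicative helicase, to 1.04 at Rrm1, a subunit of ribonucleotide reductase. For H3K36me3 over the body, 13 of 20 were lower, against 7.47% of all genes, and 0 higher, against 7.90%, with a median of 0.434. The medians of the 10 E2F and pocket protein genes, 0.215 for H3K27ac, 0.622 for H3K4me3 and 0.657 for H3K36me3, stand beside these as values of 2 lists and not as a test. Those of the 10 genes had 1 read added to each count, and those of the target genes had none.

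Cyclins D and E and their kinases phosphorylate the pocket proteins. Of 8 genes for G1 cyclins and their kinases, 6 were lower for H3K27ac, against 41.1% of all promoters, from 0.0484 at Ccnd1, cyclin D1, and 0 were higher, against 5.83%, with 1.35 at Ccnd3, cyclin D3. With relative ratios 4 were lower, against 12.5%, and 2 higher, against 16.2%. For H3K4me3, 4 of 8 were lower, against 8.09%, with 0.180 at Ccnd1 and 1.03 at Ccnd3. Of the DP partners Tfdp1 and Tfdp2 and Rbl2, the pocket protein p130, all 3 were lower for H3K27ac by total reads, from 0.167 at Tfdp1 to 0.443 at Tfdp2, against 41.1% of all promoters, and 1 was with relative ratios, against 12.5%. None of them was past the limit for H3K4me3, with 0.591 at Tfdp1 and 0.806 at Rbl2, where 8.09% of all promoters were lower and 3.74% higher.

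Complexes that work with these repressors had promoters on both sides of the shift of all marked promoters. Of 6 genes for the MuvB and DREAM complex, 3 were lower for H3K27ac, from 0.0590 at Lin9 to 1.70 at Lin54, a share near the 41.1% of all promoters, and with relative ratios 2 were lower, against 12.5%, and 2 higher, against 16.2%. Only Mybl2, a cell cycle activator of the Myb family, was lower for H3K4me3, at 0.128, with the highest ratio at Lin37, 1.37. Of all promoters 8.09% were lower for H3K4me3 and 3.74% higher, so few or none are to be found in lists this short. Of 5 corepressors that pocket proteins recruit, 2 were lower for H3K27ac, from 0.347 at Hdac2 to 1.57 at Hdac1, both histone deacetylases, again near the 41.1% of all promoters. With relative ratios 0 were lower, against 12.5%, and 2 higher, against 16.2%. For H3K4me3 none of the 5 was past the limit, from 0.584 at Suv39h1 to 1.49 at Kdm5a, against 8.09% lower and 3.74% higher. Of 6 members of the E2F6 complex, 3 were lower for H3K27ac, from 0.222 at L3mbtl2 to 1.28 at Rnf2, near the 41.1% of all promoters, and with relative ratios 1 was lower, against 12.5%, and 1 higher, against 16.2%. For H3K4me3 none of the 6 was past the limit, from 0.695 at Cbx3 to 1.29 at Mga, against 8.09% lower and 3.74% higher.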

How the data were processed

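For each of 12 ChIP-seq libraries of C2C12 cells the authors deposited a file of aligned reads, 1 line per read, so that values are read counts with no normalization, and a MACS peak list with a score per peak. For the myoblast libraries the study states alignment to mm9 with Mosaik at default parameters, unique reads and MACS, whose settings are not given in the sources used here; for myotubes the steps are not given in the sources used here. How reads were merged and whether duplicates were removed is not stated. All reads were 34 bases long, and 0.417% to 3.14% shared position and strand with another.

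Reads were extended to 150 bp and counted at their midpoints on chromosomes 1 to 19 and X (Python 3.11.15, numpy 2.4.6, scipy 1.17.1). TSSs and gene bodies came from GENCODE M1. Levels have exact Poisson and ratios exact conditional binomial 95% intervals, tested on simulated counts. PCR reads without molecular identifiers are not independent molecules, so intervals and the limit of 3 reads behind a count of 0 cover counting error only. Medians of ratios and the shift of marked promoters were computed with 1 read added to each count, and ratios of single genes with none. Peak scores deposited by the authors served for 1 alternative only. The members, lists and motifs were chosen with earlier results of these data known. The members and each list's genes of highest and lowest H3K4me3 and H3K27ac ratio are named, except 1 that is not reported here; flanks of the promoters were added after the profiles were seen. Alternatives changed the extension, duplicates, window, TSS, background, scaling, added reads, fold and read limit.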

Additional observations from a re-analysis of the deposited data

How the results depend on the processing

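Of 172 alternative values for medians and counts, 148 stayed close to the reported value, that is within its 95% order-statistic interval for a median or within 1.5 times for a count. With the 200 kb around each TSS as background, median levels became 18.9 and 11.4 for H3K4me3, 22.0 and 11.1 for H3K4me2, and 1.79 and 3.34 for H3K4me1 and H3K27ac in myotubes. Within 500 bp of the TSS, H3K4me2 in myotubes was 30.9-fold and H3K27ac in myoblasts 54.3-fold. Scaled to marked promoters, the median H3K4me2 ratio was 1.02 and so on the other side of 1, and 2 members were lower for H3K4me3 and 1 for H3K4me2. A 1.5-fold limit gave 5 members lower for H3K4me2 and 2 for H3K4me1, with no share of all promoters at that limit beside them. The median H3K4me2 ratio of marked promoters, 0.624, was itself past it. With at least 50 reads, or within 500 bp, 0 members were lower and 0 higher for H3K4me1, and E2f4 had a ratio of 0.620 over the 2 kb after the TSS. With peak scores of at least 100, 1 and 0 members were in H3K4me1 peaks of myoblasts and myotubes and 5 in H3K27ac peaks of myotubes; with a peak over the TSS itself, 0 and 0 were in H3K4me1 peaks. With the 2 myoblast lists exchanged, 9 members were in H3K27ac and 0 in H3K27me3 peaks. The H3K27ac median ratio was 0.369 over the 2 kb after the TSS and 0.386 scaled to marked promoters. Of 320 alternative promoter ratios of single members, 280 stayed inside the counting interval, and of 40 gene body ratios 39 did. The causes were not tested. No paired analysis was possible because each mark had 1 library per cell type, and no replicate could be left out. Depth limits H3K27me3 and H3K36me3 at promoters most, where 0 members had enough reads for a call, and then H3K4me1, where 8 had.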

Other observations

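Promoters of other genes with an E2F motif were set beside the E2F genes, leaving out the 10 genes and the lists. Of 364 genes whose RefSeq promoter held at least 1 of the E2F motifs and that had enough H3K27ac reads, 49.5% were at least 2-fold lower in myotubes and 3.57% higher, with a median ratio of 0.509. Of 7234 genes without these motifs, 39.7% were lower and 5.57% higher, with a median of 0.584. For H3K4me3 the shares lower were 10.0% of 389 genes with and 7.68% of 7659 without a motif, with medians of 0.784 and 0.872. These are shares of genes in 1 pair of libraries per mark, with no test, for motifs chosen with earlier results of these data known.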
